A study of Mus musculus with 4 samples.

Results

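The genes of mitosis and of the cyclin and Cdk machinery were followed in mouse embryonic stem cells (ESCs) labelled Naa10-KO and in wild-type (WT) ESCs. The 40 genes were fixed by name: 11 that act around G1 (D and E cyclins, their kinases, Cdc25a and Cdk inhibitors) and 29 that act from G2 to cytokinesis. Each was found in 1 row of the deposited tables by its symbol, and all 40 rows carried a single symbol, out of 14099 rows with 13974 distinct row names in all. Polyadenylated RNA was sequenced in 4 libraries, 2 per genotype, in a series that concerns Naa10, DNA methylation and imprinting. The Naa10-KO lines and their WT littermates, called wild type in the titles, came from the inner cell mass of blastocysts of a cross between C57BL/6 females of genotype Naa10-/X and WT JF1 males, so that the cells of both groups were C57BL6/JF1 F1 hybrids. Both groups grew in N2B27 medium with the Mek inhibitor PD325901, the Gsk3 inhibitor Chir99021 and LIF, for 5 passages on irradiated fibroblast (MEF) feeders and 5 passages without them. The labels do not say which part of Naa10 was deleted, which sex the lines had, or whether the replicates of a genotype were separate lines or cultures of 1 line, so p-values measure only the spread between these libraries.

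Cyclins switch on cyclin-dependent kinases (Cdks) in turn. D cyclins with Cdk4 or Cdk6 and E cyclins with Cdk2 drive cells from G1 into DNA replication, while A and B cyclins with Cdk1 drive them into mitosis, which the kinetochores, the spindle checkpoint and the anaphase-promoting complex (APC/C, a ubiquitin ligase) then carry to the separation of the chromosomes. Mouse ESCs are known for a short G1 phase, with high E cyclin activity and low levels of most Cdk inhibitors. Transcription of many mitotic genes peaks in G2 and M through promoters with CCAAT boxes, bound by NF-Y, and CHR elements, bound by the MuvB core of the DREAM and B-Myb complexes.

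The row that holds Naa10, joined with its neighbour Renbp, stood at 28.9 and 34.4 RPKM (a read density corrected for transcript length and library size) in Naa10-KO libraries, against 105 and 106 RPKM in WT libraries. Its log2 difference (Naa10-KO minus WT) was -1.71 with SE 0.11 and a limma adjusted p = 0.0342, a fall that no longer passed (adjusted p = 0.0822) in a table without small RNA rows and rows with a 0. It also missed the threshold without WT replicate 1 or 2 (adjusted p = 0.367 and 0.356). Sequencing depth relative to WT replicate 1, estimated from small RNA rows, was 1.46 and 1.68 for Naa10-KO replicates 1 and 2 and 1.02 for WT replicate 2. These most frequent ratios were found in 11 of 32, 11 of 33 and 14 of 33 length classes of small RNA, so they are rough. The 11 ESC markers were present in every library, with a summed level of 4267 and 5185 RPKM in Naa10-KO and 5039 and 5121 RPKM in WT. Of the 11, 8 lay below both WT libraries and 3 above in Naa10-KO replicate 1, while 9 lay above and 1 below in replicate 2. The 14 fibroblast markers, which could come from feeder cells or from other cells, summed to 613 and 198 RPKM in Naa10-KO replicates 1 and 2, against 218 and 233 RPKM in WT. Vim made up much of these sums, and without it they were 227 and 61.3 RPKM in Naa10-KO and 99.9 and 105 RPKM in WT. None of the 14 was at 0 in any library, and each was higher in Naa10-KO replicate 1 than in replicate 2. Against both WT libraries, 12 lay above and 2 below in replicate 1, and 2 above and 12 below in replicate 2. In bulk RNA, fewer cells of a type and less RNA per cell cannot be told apart.

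No member passed the test over all rows. All 5 D cyclin and partner kinase genes had higher means in Naa10-KO, with Ccnd1 at 1.85 times the WT mean, but Ccnd2 lay below WT in replicate 2. Ccne1 and all 9 kinetochore, checkpoint and chromosome genes had lower means in Naa10-KO (Mad2l1, at -0.04, was at 0.03 with median ratio scaling, which shifts all rows upward), and the APC/C ubiquitin enzyme gene Ube2c and the kinase gene Plk1 had higher ones. Ccnb1, Ccna2 and Cdk1, the core of the mitotic kinase, had log2 differences of -0.02, 0.08 and -0.11.

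The test, limma on log2(RPKM + 1), covered 11912 rows with at least 1 RPKM in at least 2 libraries, among them 38 of the 40 members. An adjusted p (Benjamini-Hochberg, over all 11912 rows) under 0.05 counted as a call. Calls were made for 91 rows, or 0.764% of those tested, 26 higher (0.218%) and 65 lower (0.546%) in Naa10-KO, and for 0 of the 38 members, whose adjusted p ran from 0.113 to 0.906. At an unadjusted limma p under 0.05 there were 14 members, 4 higher and 10 lower, or 36.8% of the 38 members against 22.1% of all tested rows (8.9% higher and 13.2% lower). In 10 members each Naa10-KO library exceeded each WT library, against 24.4% of all rows, and in 14 each was below, against 34.9% of all rows. These 24 members are 63.2% of the 38, and the background over both directions is 59.3%. Leaving out 1 Naa10-KO library makes the close WT pair set the spread, and leaving out 1 WT library makes the wider Naa10-KO pair set it. Calls were then many in the first case and few or none in the second. This held over all rows as well as among the members, so such counts say little about the members.

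**Figure D1:**
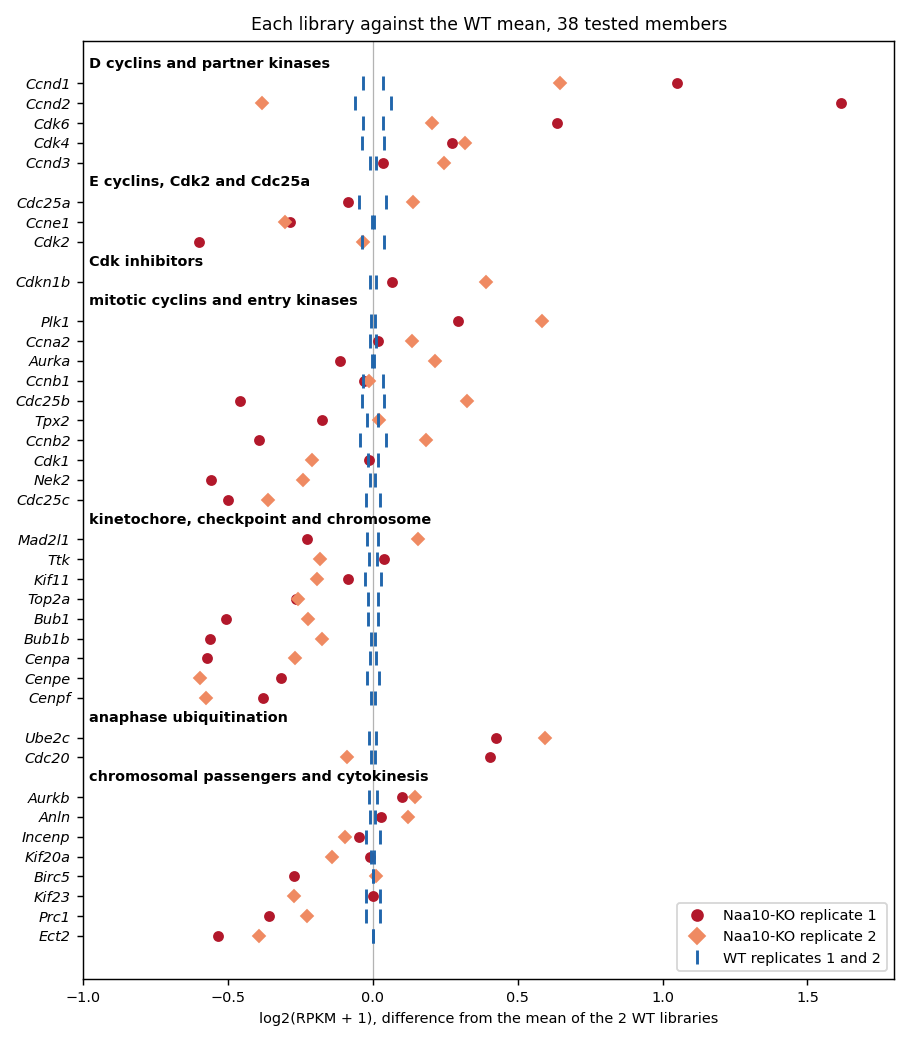
Each row is a tested member, grouped by role and ordered by its mean difference; the x axis is log2(RPKM + 1) minus the mean of the 2 WT libraries, with circles and diamonds for Naa10-KO replicates 1 and 2 and blue ticks for the WT replicates. The WT ticks lie close together throughout, while the Naa10-KO libraries part most for Ccnd2, at 1.62 and -0.38.

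The D cyclins take up growth signals and open the cell cycle with Cdk4 and Cdk6. Ccnd1, which encodes cyclin D1, had 52.4 and 39.4 RPKM in Naa10-KO libraries, against 24.2 and 25.5 RPKM in WT libraries. Both Naa10-KO values lay above both WT values, with a log2 difference of 0.85 (SE 0.16, limma adjusted p = 0.127), the largest of the 38 members by size. Ccnd2, which encodes cyclin D2, had 18.7 and 3.92 RPKM in Naa10-KO and 5.15 and 5.70 RPKM in WT. It was high in Naa10-KO replicate 1 alone and below WT in replicate 2, so that its mean difference of 0.62 (SE 0.72, adjusted p = 0.635) became -0.38 without replicate 1. In that same replicate 1, 12 of the 14 fibroblast markers lay above both WT libraries and 2 below. In replicate 2, 2 lay above and 12 below. Ccnd1 lay above the WT mean by 1.05 in replicate 1 and by 0.64 in replicate 2 on the log2 scale. The source of these marker levels was not tested, nor was any part of feeder cells or other cells in the levels of the D cyclins.

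Ccnd3, which encodes cyclin D3, was the most abundant D cyclin per transcript length, at 217 and 251 RPKM in Naa10-KO and 213 and 210 RPKM in WT (log2 difference 0.14, limma adjusted p = 0.436). The groups did not overlap, but Naa10-KO replicate 1 stood only 0.04 above the WT mean. Summed over the 3 genes, D cyclin RNA came to 288 and 294 RPKM in Naa10-KO and 242 and 242 RPKM in WT. Ccnd3 made up 75.3% and 85.3% of that sum in Naa10-KO, against 87.9% and 87.1% in WT. The Ccnd1 share was 18.2% and 13.4% in Naa10-KO and 9.98% and 10.5% in WT, higher in both Naa10-KO libraries.

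Cdk4, a kinase partner of the D cyclins, had 381 and 393 RPKM in Naa10-KO libraries and 307 and 323 RPKM in WT libraries. The groups lay apart, with a log2 difference of 0.30 (SE 0.07, limma adjusted p = 0.141), and Cdk4 had the highest level of the 40 members in WT. Cdk6, its relative, was low, at 8.72 and 6.20 RPKM in Naa10-KO and 5.11 and 5.41 RPKM in WT (log2 difference 0.42, adjusted p = 0.284). Of this role group of 5, 0 passed, and 4 had both Naa10-KO libraries above both WT libraries, beside 24.4% of all rows, with Ccnd2 the exception. The annotation places exons of a neighbour on the opposite strand over 23.4% of the exonic bases of Ccnd1 (LTO1) and 19.7% of those of Cdk4 (Tspan31). No source used here says that strand was read, so their reads cannot be told apart from those of these neighbours.

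**Figure D2:**
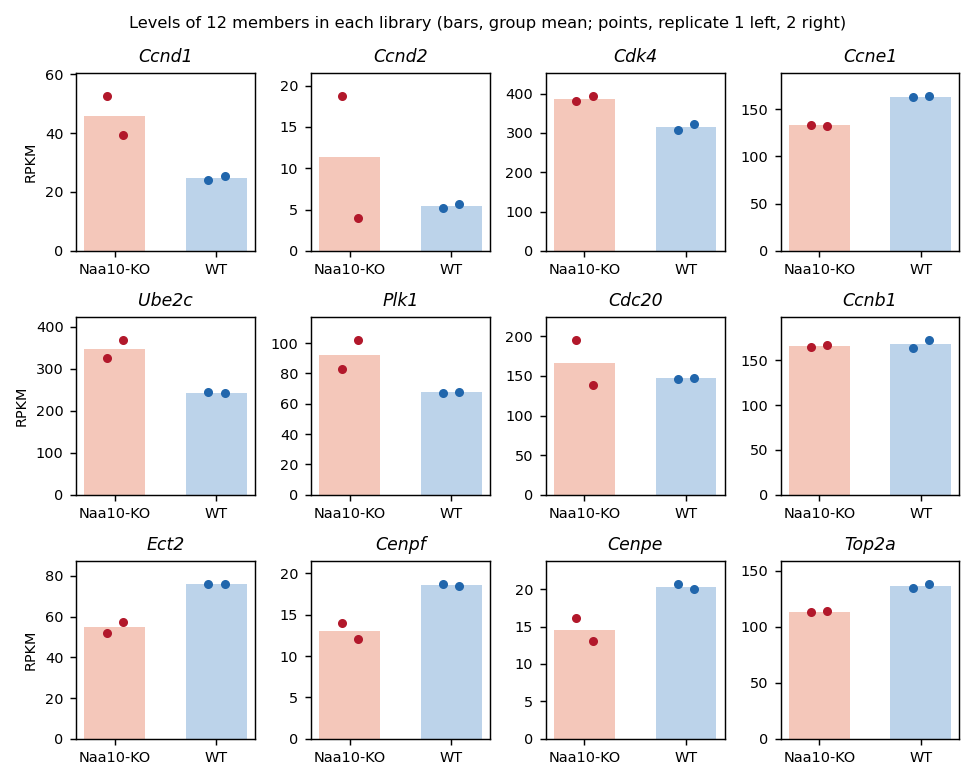
Bars give the mean RPKM of each genotype and points the single libraries, replicate 1 left of replicate 2, for 12 members with Naa10-KO left of WT; each panel has its own y axis from 0. Ccnd1, Cdk4, Ube2c and Plk1 had both Naa10-KO points above both WT points, and Ccne1, Ect2, Cenpf, Cenpe and Top2a had both below.

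E cyclins with Cdk2 start DNA replication, and Cdc25a, a phosphatase, activates these kinases. Ccne1, which encodes cyclin E1, had 134 and 132 RPKM in Naa10-KO libraries, against 163 and 164 RPKM in WT libraries. All libraries of a genotype agreed closely and the genotypes lay apart, at a log2 difference of -0.29 (SE 0.06, limma adjusted p = 0.134). Ccne2, which encodes cyclin E2, was listed at 0 in Naa10-KO replicate 1 and in both WT libraries and at 4.99 RPKM in Naa10-KO replicate 2. An exact 0 in these tables can be a failed estimate, so no fold is given, and Ccne2 did not enter the test. Cdk2 had 29.9 and 44.7 RPKM in Naa10-KO and 44.6 and 47.0 RPKM in WT (log2 difference -0.32, adjusted p = 0.436). Only Naa10-KO replicate 1 was below the WT range. Cdc25a had 35.2 and 41.3 RPKM in Naa10-KO, one on each side of its WT values of 36.2 and 38.7 RPKM.

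The Cdk inhibitors on the list were low in all 4 libraries, which does not hold for every Cdk inhibitor. Cdkn1a, outside the list and singled out for its level, had 192 and 141 RPKM in Naa10-KO and 216 and 198 RPKM in WT. Cdkn1b, which encodes p27 and binds Cdk2 complexes, had 5.09 and 6.62 RPKM in Naa10-KO and 4.78 and 4.86 RPKM in WT (log2 difference 0.23, limma adjusted p = 0.439). Naa10-KO replicate 2 was the high library, and replicate 1 stood close to WT. Cdkn2c, which encodes p18 and binds Cdk4 and Cdk6, had 0.313 and 0.271 RPKM in Naa10-KO and 0.347 and 0.403 RPKM in WT and was too low for the test.

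For the mitotic genes, promoter sequence was read from RefSeq (GRCm38.p6, a later build than the mm9 of the deposited values) in windows from 250 bases before to 50 bases after each annotated start, which the table at hand held for 31 of the 40 members. The windows were searched on both strands for the CHR motif TTTGAA, its variant TTTAAA and for CCAAT, where a CCAAT match can share an end base with a match of the others. Of the 25 windows of 23 mitotic members, TTTGAA occurred in 72% and CCAAT in 88%, against 17.9% and 37.4% of all 32851 windows in the table. Of those 25 windows, 76% held CCAAT and at least 1 of TTTGAA and TTTAAA, against 10.7% of all windows. TTTAAA was in 28% of the mitotic windows and 13.2% of all. Among the 10 windows of 8 G1 members, TTTGAA was in 0%, CCAAT in 50% and TTTAAA in 20%. These are matches of letters, with no measurement of binding. The promoters of the mitotic members with the largest positive (Ube2c) and largest negative (Cenpf) difference, and of Ccnb1, Plk1 and Cdc20, are shown over the 150 bases before the start, 5′ to 3′ on the strand of the gene, with matches in capitals (ATTGG and TTCAAA are the motifs on the other strand).
Ube2c (chr2:164769779-164769928, plus strand): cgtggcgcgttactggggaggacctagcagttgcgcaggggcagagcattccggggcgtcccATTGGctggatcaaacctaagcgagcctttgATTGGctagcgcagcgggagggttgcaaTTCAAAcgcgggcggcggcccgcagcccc
Cenpf (chr1:189688087-189688236, minus strand): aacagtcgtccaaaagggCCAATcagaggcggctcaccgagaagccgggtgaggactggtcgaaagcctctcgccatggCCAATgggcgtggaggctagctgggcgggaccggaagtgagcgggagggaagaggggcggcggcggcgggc
Ccnb1 (chr13:100786487-100786636, minus strand): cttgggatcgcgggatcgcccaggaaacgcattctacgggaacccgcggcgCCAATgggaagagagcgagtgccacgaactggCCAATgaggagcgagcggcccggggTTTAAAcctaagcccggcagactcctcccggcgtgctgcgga
Plk1 (chr7:122159285-122159434, plus strand): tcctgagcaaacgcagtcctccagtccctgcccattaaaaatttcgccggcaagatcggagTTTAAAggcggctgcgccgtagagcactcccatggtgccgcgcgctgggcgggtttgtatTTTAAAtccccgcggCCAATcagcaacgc
Cdc20 (chr4:118437344-118437493, minus strand): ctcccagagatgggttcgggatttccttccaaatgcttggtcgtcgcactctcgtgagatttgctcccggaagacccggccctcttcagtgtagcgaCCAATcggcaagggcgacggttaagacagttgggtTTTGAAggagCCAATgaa

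**Figure D3:**
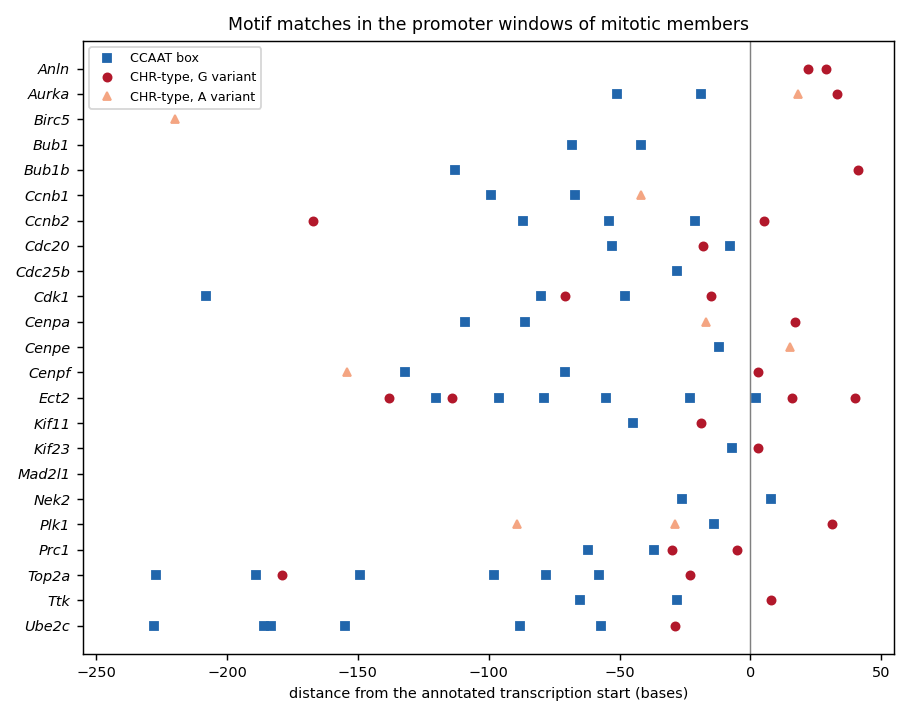
Each row is a mitotic member with a promoter window in the RefSeq table, the x axis is the distance in bases from the annotated start (line at 0), and symbols mark CCAAT matches (squares), the G variant of the CHR-type motif, TTTGAA (circles), and its A variant, TTTAAA (triangles), on either strand; Ect2 and Top2a carry the most matches in one row, and genes with several starts share a row. Of the 25 windows, 22 held CCAAT and 18 held TTTGAA, and Mad2l1 held none of the motifs.

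Ube2c and Cenpf, at opposite ends of the mitotic members, both carried CCAAT boxes with a CHR-type motif in the window (for Ube2c at 29 bases before the start on the other strand, and for Cenpf beyond the stretch shown, nearest at 3 bases after the start), as did Ccnb1, whose level was close to WT. CCAAT and a CHR-type motif stood together in 76% of the 25 mitotic windows. Any relation of the motifs to the differences was not tested.

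Among the mitotic cyclins, Ccnb1, which encodes cyclin B1, had 165 and 167 RPKM in Naa10-KO libraries and 164 and 172 RPKM in WT libraries. The groups overlapped, and the log2 difference of -0.02 had a 95% interval of -0.20 to 0.16 (limma adjusted p = 0.853). Ccna2, which encodes cyclin A2 and acts in S and G2, had 108 and 117 RPKM in Naa10-KO and 107 and 106 RPKM in WT, a difference of 0.08 with an interval of -0.13 to 0.29. Cdk1, their kinase, had 39.6 and 34.4 RPKM in Naa10-KO and 39.5 and 40.4 RPKM in WT, a difference of -0.11 with an interval of -0.39 to 0.17. These intervals leave room for changes of that size, so equal levels were not shown. Ccnb2, which encodes cyclin B2, had 70.5 and 106 RPKM in Naa10-KO, one below and one above the WT values of 95.9 and 90.2 RPKM.

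Plk1, the polo kinase that promotes mitotic entry and spindle assembly, had 83.0 and 102 RPKM in Naa10-KO libraries, against 67.3 and 67.9 RPKM in WT libraries. Both Naa10-KO libraries were higher (log2 difference 0.44, SE 0.12, limma adjusted p = 0.168). Cdc25c, a phosphatase that activates Cdk1 at mitotic entry, had 8.74 and 9.72 RPKM in Naa10-KO and 13.0 and 12.6 RPKM in WT. It lay lower in both Naa10-KO libraries (log2 difference -0.43, SE 0.11, adjusted p = 0.150). Nek2, a kinase that separates centrosomes, had 22.1 and 27.8 RPKM in Naa10-KO and 32.8 and 33.2 RPKM in WT, again without overlap (log2 difference -0.40, adjusted p = 0.212). The Cdc25c relative Cdc25b had 6.08 and 11.2 RPKM in Naa10-KO, on opposite sides of 8.48 and 8.99 RPKM in WT. Aurka, the kinase of the spindle poles, split the same way, with 76.4 and 96.2 RPKM in Naa10-KO and 82.5 and 83.0 RPKM in WT. Its activator Tpx2 had 59.2 and 68.0 RPKM in Naa10-KO and 67.9 and 66.1 RPKM in WT. In 9 of the 10 genes of this role group, Naa10-KO replicate 1 was lower than replicate 2, as in 6490 of the 11912 tested rows.

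All 9 kinetochore, checkpoint and chromosome genes had a negative mean difference (for Mad2l1 one of -0.04, nearer to 0 than the median of all rows), with a median of -0.37 beside -0.06 over all tested rows, and 7 of the 9 had both Naa10-KO libraries below both WT libraries, beside 34.9% of all rows. None passed over all rows, and 5 were lower at an unadjusted limma p under 0.05, beside 13.2% of all rows. Cenpf, a large protein of the outer kinetochore, had 14.1 and 12.1 RPKM in Naa10-KO libraries, against 18.7 and 18.5 RPKM in WT libraries (log2 difference -0.48, SE 0.11, limma adjusted p = 0.143). Cenpe, the kinesin that carries chromosomes to the spindle equator, had 16.1 and 13.1 RPKM in Naa10-KO and 20.7 and 20.02 RPKM in WT (log2 difference -0.46, adjusted p = 0.172). Both genes were lowest in Naa10-KO replicate 2. Cenpa, the histone H3 variant that marks the centromere, had 49.0 and 60.7 RPKM in Naa10-KO and 72.9 and 73.8 RPKM in WT, lowest in replicate 1 (log2 difference -0.42, adjusted p = 0.185).

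The checkpoint kinases hold back anaphase until every chromosome is attached. Bub1 had 28.6 and 35.01 RPKM in Naa10-KO and 40.5 and 41.6 RPKM in WT (log2 difference -0.37, limma adjusted p = 0.212). Its relative Bub1b, which encodes BubR1, had 28.9 and 37.96 RPKM in Naa10-KO and 42.8 and 43.3 RPKM in WT (log2 difference -0.37, adjusted p = 0.265). The pair stayed in step, as the ratio of Bub1 to Bub1b RPKM was 0.991 and 0.922 in Naa10-KO and 0.947 and 0.962 in WT. Mad2l1, which encodes the checkpoint protein Mad2 that inhibits Cdc20, had 60.7 and 79.6 RPKM in Naa10-KO, below and above its WT values of 72.2 and 70.3 RPKM. Ttk, the Mps1 kinase at the top of the checkpoint, had 18.3 and 15.6 RPKM in Naa10-KO and 18.0 and 17.6 RPKM in WT, also on opposite sides. Kif11, the motor that pushes the spindle poles apart, differed little, with 40.1 and 37.2 RPKM in Naa10-KO and 41.9 and 43.5 RPKM in WT. Top2a, which untangles sister chromatids, had 113 and 114 RPKM in Naa10-KO and 134 and 138 RPKM in WT, with close replicates on both sides (log2 difference -0.26, SE 0.06, adjusted p = 0.146).

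Cdc20 and Ube2c, the activator and the ubiquitin-conjugating enzyme with which the APC/C starts anaphase, lay on the other side of WT on average. Ube2c had 327 and 368 RPKM in Naa10-KO libraries, against 245 and 241 RPKM in WT libraries. Both Naa10-KO libraries were well above both WT libraries, 1.43-fold by the means (log2 difference 0.51, SE 0.08), with the smallest p of all members (unadjusted 0.00413, limma adjusted p = 0.113). Exons of Tnnc2 on the opposite strand cover 22.8% of its exonic bases. Cdc20 had 195 and 138 RPKM in Naa10-KO and 146 and 148 RPKM in WT (log2 difference 0.16, adjusted p = 0.636), high in replicate 1 and below WT in replicate 2. The ratio of Cdc20 to its inhibitor Mad2l1 in RPKM was accordingly 3.21 and 1.74 in Naa10-KO, on both sides of 2.03 and 2.10 in WT.

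The chromosomal passenger genes, whose products correct chromosome attachment and direct cytokinesis, lay near WT. Aurkb, the kinase of that complex, had 33.2 and 34.3 RPKM in Naa10-KO and 31.2 and 30.6 RPKM in WT (log2 difference 0.12, limma adjusted p = 0.398). Incenp, its scaffold, had 59.2 and 57.3 RPKM in Naa10-KO and 62.3 and 60.3 RPKM in WT. Birc5, which encodes survivin, had 91.8 and 112 RPKM in Naa10-KO and 111 and 111 RPKM in WT, so that only replicate 1 lay clearly apart. Among cytokinesis genes, Ect2 differed most. This activator of RhoA at the cleavage furrow had 52.1 and 57.5 RPKM in Naa10-KO libraries, against 75.9 and 75.8 RPKM in WT libraries (log2 difference -0.46, SE 0.08, adjusted p = 0.117). Prc1, which bundles the microtubules of the central spindle, had 49.1 and 53.9 RPKM in Naa10-KO and 64.3 and 62.2 RPKM in WT, lower in both (log2 difference -0.29, adjusted p = 0.173).

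The remaining cytokinesis genes stayed near WT in at least 1 Naa10-KO library. Kif23, a motor of the central spindle, had 30.8 and 25.3 RPKM in Naa10-KO and 31.4 and 30.2 RPKM in WT. Kif20a, a motor that brings passenger proteins there, had 47.6 and 43.3 RPKM in Naa10-KO and 47.7 and 48.1 RPKM in WT. Anln, the scaffold protein anillin of the contractile ring, had 29.1 and 31.1 RPKM in Naa10-KO and 28.4 and 28.7 RPKM in WT. Kif20a shares 29.3% of its exonic bases with Cdc23 on the opposite strand. Over all members, 16 had such exonic overlap on the opposite strand, and Ccnb1, Ccnb2 and Ccnd3 have annotated pseudogene copies that could share reads with them.

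Set side by side, the 9 tested G1 members had a median log2 difference of 0.23 and the 29 mitotic members one of -0.11, beside -0.06 over all tested rows. Of the G1 members 7 had higher and 2 lower means in Naa10-KO, and 5 (55.6%) had both Naa10-KO libraries above both WT libraries and 1 (11.1%) both below. Of the mitotic members 7 had higher and 22 lower means, and 5 (17.2%) lay above and 13 (44.8%) below without overlap. Over all tested rows 5081 had higher and 6831 lower means, with 24.4% above and 34.9% below without overlap. Within each library against the WT mean, the median of the G1 members was 0.07 for Naa10-KO replicate 1 and 0.20 for replicate 2. The mitotic median was -0.17 and -0.14, against -0.08 and -0.02 over all tested rows. With libraries scaled by the median ratio of all rows, the mitotic median was -0.04 and that of all rows -0.00173, so both shifted alike. These medians were not tested. Neither class was uniform: Ccne1 and Cdk2 lay with the lower genes, and Ube2c and Plk1 with the higher ones. The G1 median was the value of Cdkn1b, at 4.78 to 6.62 RPKM. A longer list of other G1/S regulators, described below, went the other way, with a median of -0.22 over 22 rows. Of these, 5 lay above and 13 (59.1%) below without overlap, so the G1 median holds only for the 9 tested members.

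The Naa10-KO libraries differed from each other more than the WT libraries did, in the members as in the table at large. The median gap within a pair was 0.22 on the log2 scale for Naa10-KO and 0.03 for WT over the 38 members, and 0.25 and 0.05 over all tested rows. In 10 members 1 Naa10-KO library lay above both WT libraries and the other below both, a pattern of 25.3% of all rows. These were 8 of the 29 mitotic members and 2 of the 9 tested G1 members. Naa10-KO replicate 1 was lower than replicate 2 in 25 of the 38 members, beside 6490 of 11912 rows. Transcript length, taken as the longest coding transcript in GENCODE M21, had a Spearman rho of -0.09 with the mean difference over the 38 members, which share the same libraries. For Naa10-KO replicates 1 and 2 taken singly, rho was 0.07 and -0.23 over the members. Over the 10620 tested rows with a length it was 0.06 and -0.04, and 0.02 for the mean difference.

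**Figure D4:**
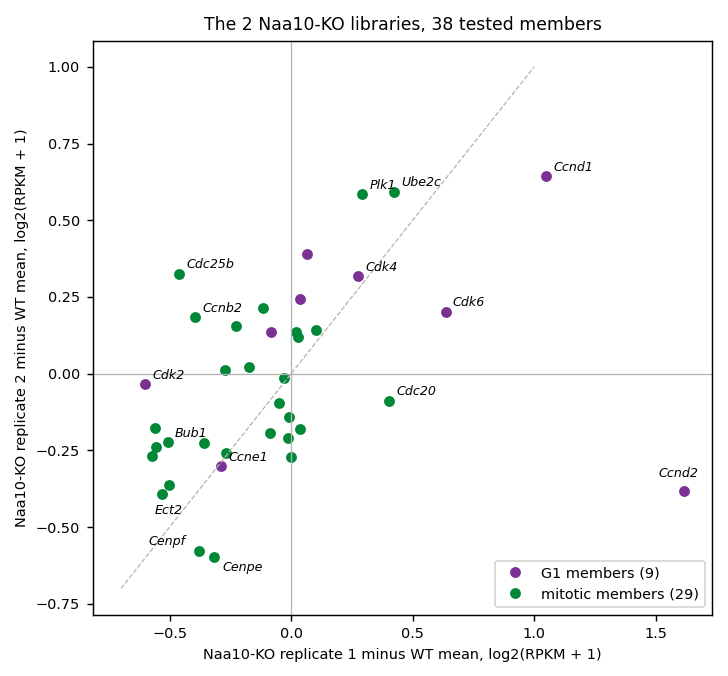
Each point is a tested member, with the difference of Naa10-KO replicate 1 from the WT mean on the x axis and that of replicate 2 on the y axis, both on log2(RPKM + 1), purple for G1 and green for mitotic members; the dashed line marks equal differences. Ube2c, Plk1, Ccnd1 and Cdk4 lie above WT in both libraries, Ect2, Cenpe and Cenpf below in both, and Ccnd2 lies far to the right at 1.62 but below 0 for replicate 2.

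Of 126 further cell cycle genes in 7 lists, 127 rows were tested (Cdkn2d has 2 rows), and 0 passed in either direction. Their median log2 difference was -0.11, with 39 rows higher and 88 lower, and 31 had an unadjusted limma p under 0.05, or 24.4% against 22.1% of all rows. Of these 31, 6 were higher and 25 lower, beside 8.9% and 13.2% of all rows. Without overlap, 20 of the 127 rows (15.75%) lay above and 68 (53.54%) below, beside 24.4% and 34.9% of all rows. Condensin, which compacts mitotic chromosomes, resembled the kinetochore members in direction. Of the 9 rows of condensin subunits and Mki67, a protein of the mitotic chromosome surface, 8 had both Naa10-KO libraries below both WT libraries, beside 34.9% of all rows, with a median of -0.31. The core subunit gene Smc4 had 53.9 and 44.4 RPKM in Naa10-KO and 74.0 and 75.1 RPKM in WT (log2 difference -0.60, adjusted p = 0.128). Ncapg had 17.3 and 19.7 RPKM in Naa10-KO and 29.0 and 25.7 RPKM in WT (log2 difference -0.54, adjusted p = 0.136). Ncapd2 went the other way on average, at 89.8 and 131 RPKM in Naa10-KO and 91.97 and 92.2 RPKM in WT, below WT in replicate 1.

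Other kinetochore and checkpoint genes had a median of -0.18, with 9 of 37 rows higher and 28 lower. Without overlap, 5 lay above and 22 below, beside 24.4% and 34.9% of all rows. Ska2, which holds kinetochores to microtubules, had 20.3 and 21.8 RPKM in Naa10-KO and 28.6 and 29.2 RPKM in WT, and Spc25, of the Ndc80 complex, had 32.0 and 27.2 RPKM in Naa10-KO and 40.9 and 41.1 RPKM in WT (limma adjusted p = 0.127 and 0.145). Cenpm had 36.7 and 48.7 RPKM in Naa10-KO and 30.4 and 30.1 RPKM in WT, and the joined row of Pmf1 and Slc25a44 had 125 and 145 RPKM in Naa10-KO and 105 and 105 RPKM in WT. Spindle motor and cytokinesis genes had a median of -0.16, with 4 of 20 rows higher and 16 lower. Hmmr, a spindle assembly factor, had 44.9 and 45.0 RPKM in Naa10-KO and 59.1 and 58.2 RPKM in WT, and Cep55, which acts in the final cut between daughter cells, had 17.0 and 18.7 RPKM in Naa10-KO and 26.1 and 25.2 RPKM in WT (adjusted p = 0.118 and 0.122). The motor genes Kif2c and Kif22, the second in a row joined with Maz, had the smallest p of the higher rows, at log2 differences of only 0.08 and 0.06.

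The APC/C list, with a median of -0.06, was close to all rows, at 7 higher and 11 lower. Its subunit gene Anapc11 had 19.2 and 21.3 RPKM in Naa10-KO and 10.4 and 13.9 RPKM in WT, and Anapc16 a log2 difference of 0.30, while Anapc7 had 16.2 and 16.7 RPKM in Naa10-KO and 22.6 and 22.7 RPKM in WT, and Anapc13 a difference of -0.37. Other G1/S regulators had a median of -0.22, opposite in sign to the G1 members, with 8 of 22 rows higher and 14 lower. Without overlap, 5 lay above and 13 below, beside 24.4% and 34.9% of all rows. Fbxw7, which marks cyclin E for destruction, had 9.63 and 9.34 RPKM in Naa10-KO and 14.5 and 13.5 RPKM in WT (adjusted p = 0.125). The Cdk-binding proteins Cks2 and Cks1b lay on opposite sides, at log2 differences of -0.32 and 0.22, and the repressor gene E2f8 had 0.40. G2/M transcription factors had a median of 0.08, with Lin37 at 0.30, Foxm1 in its joined row at 0.30, Lin52 at -0.55 and Rbbp4 at -0.07. Mitotic entry regulators had a median of -0.04, with the cyclin F gene Ccnf in its joined row at 0.39, the histone H3 kinase gene Gsg2 at 0.38, the replication kinase gene Cdc7 at -0.55 and the centriole kinase gene Plk4 at -0.32. Bora, an Aurka cofactor of that list singled out for its values, had a listed 0 for Naa10-KO replicate 1 and 13.4 RPKM for replicate 2, against 18.5 and 16.7 RPKM in WT.

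**Figure D5:**
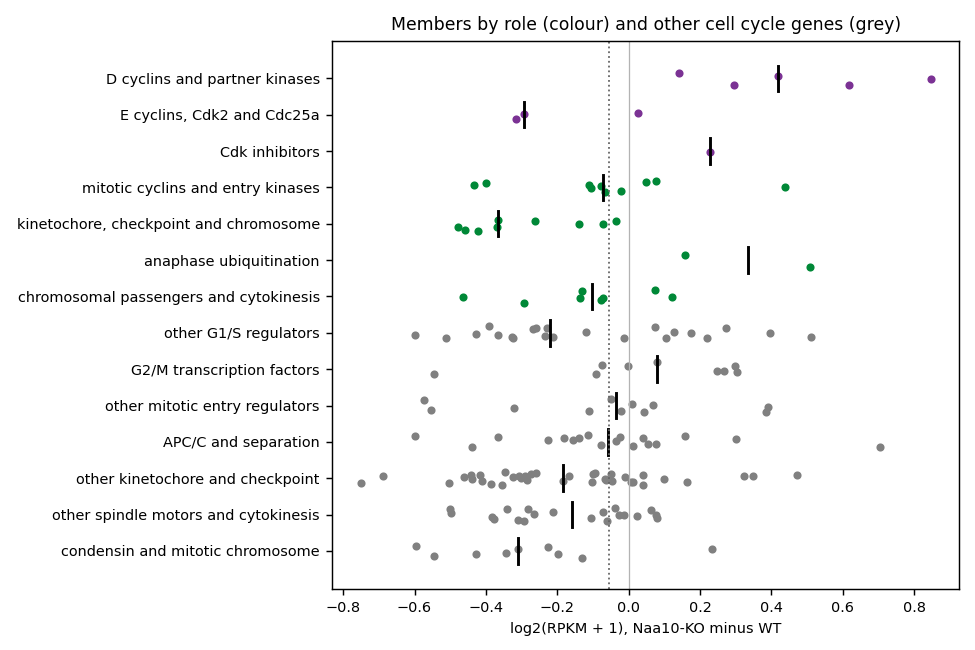
The x axis is the Naa10-KO minus WT difference on log2(RPKM + 1), each point is a tested row (Bora, listed at 0 in 1 library, is not drawn), black bars are list medians and the dotted line is the median of all tested rows at -0.06. The medians of the D cyclin group (0.42) and of the kinetochore members (-0.37) lie to either side of it, and the condensin list lies at -0.31.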

How the data were processed

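The authors deposited 1 table per library of polyadenylated RNA, in RPKM per the file headers, with the mm9 build and the tools Cufflinks and bedtools (no versions) named in the submitters' processing notes (aligner and annotation not given in the sources used here). Libraries were joined by row. Rows with at least 1 RPKM in at least 2 libraries were tested on log2(RPKM + 1), Naa10-KO minus WT, with limma 3.58.1 (trend, two-sided) in R 4.3.3 and Benjamini-Hochberg adjustment over all tested rows. Fold changes on this scale understate low genes. Residual degrees of freedom were 2, with 1.94 more borrowed across rows, and the script was checked on simulated data. The simulation gave both genotypes the same spread, which these libraries did not have, so it does not show how the test performs on them. Fragment counts were not used here; relative depth came from the smallest values of small RNA rows of equal length (up to 100 nt), as the ratio to WT replicate 1 that recurred most among length classes. The number of libraries limits the precision. Python 3.11.15 and pandas 2.3.3 served for the other steps.

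All 40 members and the Naa10 row were named, and from each of the other lists the rows past the threshold and the 2 with the smallest p in each direction. Cdkn1a and Bora were named besides for their values. Members and lists were chosen with earlier results of these data known. Alternatives covered the pseudocount, filters, scaling, trend, a replicate block and each library left out. Promoters are RefSeq's (GRCm38.p6), and exon overlaps come from GENCODE M21.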

Additional observations from a re-analysis of the deposited data

How the results depend on the processing

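Members past the threshold numbered 0 under 9 alternatives that keep all libraries and without either WT library. With a library left out, the range was 0 to 24 members and 12 to 7081 rows, in a fit where the lone library borrows the spread of the remaining pair. The 91 rows became 40 with no filter on low values and 44 with the replicate block. They became 0 with rows at 0 and small RNA rows left out (smallest limma adjusted p 0.0591, 2625 rows at an unadjusted p under 0.05). Under the replicate block, 9 members (23.7%) rather than 14 had an unadjusted limma p under 0.05. The share of all rows there was 14.9%, and 0 members passed. Across the 4 libraries left out in turn, the G1 median ran from 0.0658 to 0.24 and the mitotic median from -0.17 to -0.10. With median ratio scaling the mitotic median was -0.0439, and Ccnb1 and Mad2l1 were at 0.0393 and 0.0258, by a shift that all rows shared (their median was -0.00173, against -0.06). Directions that turned with 1 library left out had ranges of -0.38 to 1.62 for Ccnd2, -0.39 to 0.18 for Ccnb2, -0.46 to 0.33 for Cdc25b, -0.17 to 0.0209 for Tpx2, -0.23 to 0.16 for Mad2l1, -0.0877 to 0.40 for Cdc20, -0.27 to 0.0105 for Birc5, -0.0847 to 0.14 for Cdc25a, -0.11 to 0.21 for Aurka, -0.18 to 0.0381 for Ttk, -0.0567 to 0.0121 for Ccnb1, -0.15 to 0.00299 for Rbbp4 and -0.0357 to 0.50 for Ncapd2. The cause was not tested. The replicate numbers share no stated source, and the gaps between replicates 1 and 2 correlated at -0.21 between the genotypes over 11912 rows. The pairing with the numbers crossed, chosen after seeing the data, called 133 rows and 0 members. Absolute depth is unknown, so no counting error is given for any value.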
